A study of Mus musculus with 2 samples.

Results

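The genes for the proteins of the cytosolic ribosome were followed in cultured mouse renal progenitors given panobinostat, an inhibitor of histone deacetylases, or DMSO vehicle. Members were taken by name: every gene symbol that begins Rpl, Rps or Rplp and goes on with a number, plus Rpsa, without the Rps6k kinases and without symbols that carry the pseudogene mark "-ps". This gave 85 of the 19394 genes measured. Of these, 77 are canonical ribosomal proteins, 46 of the large subunit and 31 of the small subunit. The other 8 are paralogs or match by name alone, namely Rpl3l, Rpl7l1, Rpl22l1, Rpl36al, Rpl39l, Rps19bp1, Rps27l and Rps27rt. The paralogs Rpl10l and Rps4l are not among these 19394 genes.

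Both groups came from glomerular outgrowths of healthy C57Bl/6 mice aged 9 weeks, and carried Pax2.rtTA and TetO.Cre together with R26.mT/mG. In these mice the Pax2 promoter drives an inducible Cre, which switches a reporter to GFP, and GFP-positive cells were sorted after 5 days of outgrowth. The sorted cells were starved for 16 h and then received 0.2 µM panobinostat for 48 h, or DMSO for the same time. The labels give 2 mice and 1 droplet (10x Genomics) 3′ library for each treatment, so there is no replicate check, no test between treatments was possible. Effects of the drug and of the culture or library itself cannot be told apart. Every interval given covers counting error only.

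The panobinostat library held 2281 cells with 104188927 UMIs (unique molecular identifiers, that is distinct captured molecules) and a median of 42394 UMIs per cell. The vehicle library held 2854 cells with 90754967 UMIs and a median of 27923.5 UMIs per cell. The libraries shared 0 cell barcodes. Of the sort's defining gene Pax2, 24.9 CPM (UMIs per 1000000 UMIs of a library) were counted in the panobinostat library and 40.4 CPM in the vehicle library. Of the partner progenitor gene Pax8, 119.9 CPM were counted with panobinostat and 120.2 CPM with vehicle. The other listed progenitor markers follow, with CPM in the panobinostat and then the vehicle library. Cd24a had 587 and 646, Prom1 69.7 and 93.3, Krt8 1710 and 4587, and Krt18 2295 and 3301. Vcam1 had 5.04 and 14.7, Ncam1 269 and 60.4, and Cdh6 21.2 and 38.9. Among cells thinned to 18663 UMIs each, 2218 panobinostat cells were called G1, 3 S and 0 G2/M, while 845 vehicle cells were called G1, 610 S and 946 G2/M. The nuclear RNA Malat1 took 4.18% of UMIs with panobinostat and 0.734% with vehicle, and mitochondrially encoded transcripts took 6.88% with panobinostat and 5.35% with vehicle. The libraries therefore differ in depth, cell cycle and RNA make-up as well as in treatment, and values within strata of these measures are given beside the results.

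A ribosome is built from a small subunit, which reads the mRNA, and a large subunit, which joins the amino acids. Its proteins are needed in equal amounts, apart from the doubled stalk proteins, and their mRNAs are among the most abundant in any growing cell. Many of these mRNAs start with a run of pyrimidines at the very 5′ end, the TOP element, through which mTOR signalling and the RNA-binding protein Larp1 control their translation and stability. A few ribosomal proteins have paralogs that take the partner's place in some tissues or act in ribosome assembly.

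Transcripts of the 85 members together took 13.336% of all UMIs in the panobinostat library and 16.384% in the vehicle library. The exact binomial (Clopper-Pearson) 95% intervals were 13.329 to 13.342% with panobinostat and 16.376 to 16.391% with vehicle. The log2 ratio of panobinostat over vehicle was -0.30, or 1.23-fold lower. In molecules, 13894591 member UMIs were counted with panobinostat and 14869159 with vehicle. The large subunit took 7.46% of UMIs with panobinostat and 9.09% with vehicle, a log2 ratio of -0.29. The small subunit took 5.75% with panobinostat and 7.11% with vehicle, a log2 ratio of -0.31. The balance of the subunits was nearly the same in both libraries, since large-subunit genes held 56.5% of canonical ribosomal protein UMIs with panobinostat and 56.1% with vehicle.

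A share of the library depends on what else is in it. With Malat1 and Neat1 left out of the totals, an alternative added after the data were seen, the log2 ratio of the summed share was -0.24. With TMM factors it was -0.41 and with DESeq2 size factors -0.42. These scalings move the median log2 ratio of all genes, which is -0.07 with CPM, by -0.12 with TMM and by -0.13 with DESeq2. The summed share lay lower with panobinostat under every alternative run, between -0.42 and -0.23 on the log2 scale.

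The lower share was spread over nearly the whole population of cells. Ribosomal protein transcripts took a median of 12.9% of a cell's UMIs with panobinostat, with quartiles of 11.7 and 14.2%. In vehicle cells the median was 16.3%, with quartiles of 15 and 17.5%. Of panobinostat cells, 93.2% lay below the vehicle median and 85.4% below the lower quartile of vehicle cells. The tails overlapped, with single cells at 6.48 to 36.9% in the panobinostat library and 6.92 to 36.04% in the vehicle library. Cells of a library are not replicates, so these percentages describe 2 libraries and test nothing.

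**Figure D1:**
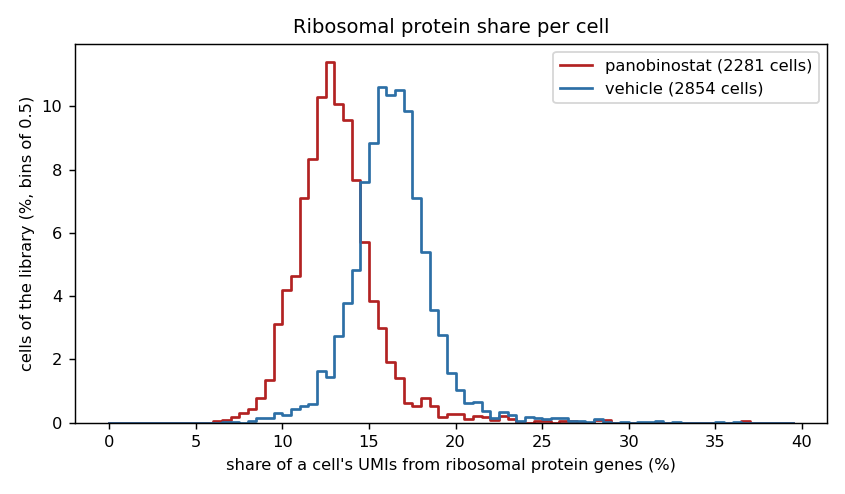
Share of each cell's UMIs that came from the 85 ribosomal protein genes (x axis, %), as the percentage of cells of each library (y axis) in bins of 0.5 points, for 2281 panobinostat and 2854 vehicle cells. The panobinostat cells centre on a median of 12.9% and the vehicle cells on 16.3%, with overlapping tails.

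In absolute numbers the order was the other way. A panobinostat cell held a median of 5307 member UMIs (quartiles 4056 and 7345), and a vehicle cell 4457.5 (quartiles 3446.5 and 6264.25). The panobinostat cells were the more deeply counted ones, so cells were also compared within bins of total UMIs. Between 34619 and 47775.5 UMIs per cell, the median was 5092 member UMIs in 746 panobinostat cells and 6350 in 537 vehicle cells. Over all 6 bins, the median share ran from 12.3 to 14.2% in panobinostat cells and from 15.9 to 17.4% in vehicle cells, so the bin medians of the libraries did not overlap. Whether more UMIs per cell reflect more RNA or deeper sampling cannot be told apart here.

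The difference was also present among cells of the same called phase. Cells called G1 had a median share of 12.9% with panobinostat and 16.1% with vehicle. Within the vehicle library the medians were 16.1% in G1, 16.4% in S and 16.1% in G2/M, a range of under 1 point. Cells rich in Malat1 had lower shares in both libraries: the median was 14.8% in the 10% of panobinostat cells poorest in Malat1 and 11.8% in the 10% richest. In vehicle cells it was 17.6% in the 10% poorest in Malat1 and 15% in the 10% richest. These groups were cut within each library, so they do not match in Malat1 level. The 10% richest vehicle cells had a median Malat1 share of 2.14%. The panobinostat group nearest to that, group 2 of 10 from the poorest, had a median Malat1 share of 2.28%. Its median ribosomal share was 13.7%, so the libraries differed less there than over all cells. The part of Malat1 in the difference was not tested. The Spearman correlation of a cell's ribosomal share with its Malat1 share was -0.36 over 2281 panobinostat cells and -0.31 over 2854 vehicle cells. Both shares are parts of the same total. With Malat1 and Neat1 left out of each cell's total, the difference in median share per cell was -2.89 points, against -3.37 points with them.

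**Figure D2:**
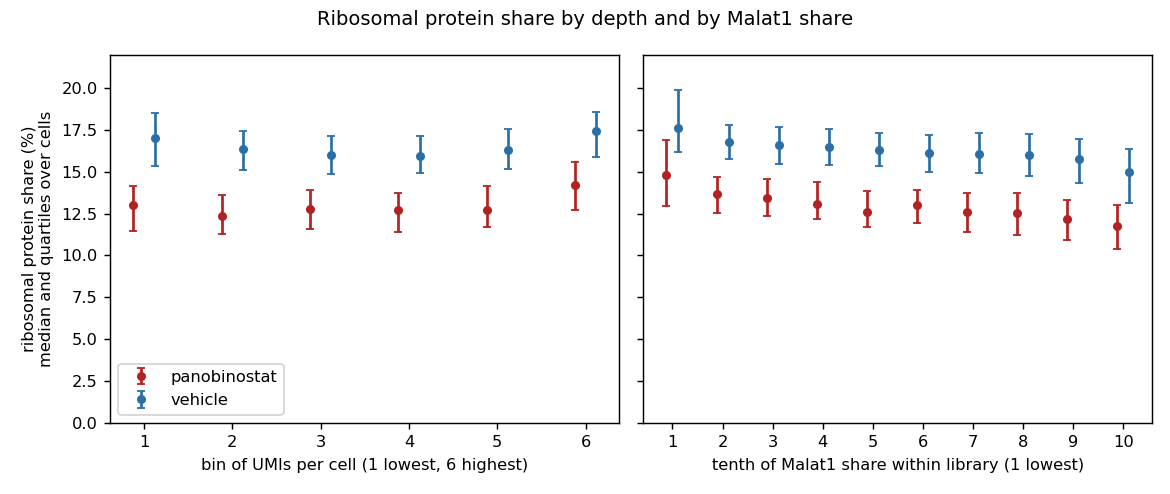
Median share of a cell's UMIs from ribosomal protein genes (y axis, %), with quartiles as bars, in panobinostat and vehicle cells across bins of total UMIs (left) and across 10 equal groups of Malat1 share within a library (right). The panobinostat medians, 12.3 to 14.2% over the 6 UMI bins, lie below the vehicle medians, 15.9 to 17.4%, in every bin.

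Each gene was compared by the log2 ratio of its CPM in panobinostat over vehicle cells, and an exact binomial 95% interval conditional on the gene's total UMIs was taken. A gene was called when its ratio was at least 2-fold, the interval excluded equality and it reached a floor of 10 CPM in at least 1 library. This is a rule of size for 2 libraries and not a test. Of the 85 members, 83 reached the floor. Among them 0 were called higher and 1, Rpl22l1, was called lower. Over all 8872 genes past the floor, 9.85% were called higher and 11.0% lower, 20.8% in either direction. The median log2 ratio of the 83 members was -0.24, beside -0.07 over all genes past the floor.

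The members lay closer together than other genes of the same range of abundance. Their log2 ratios had an SD of 0.33 and an interquartile range of 0.48, and ran from -1.01 to 0.71. Among 827 other genes of the same range of abundance, 169 to 3349 CPM, the SD was 0.82 and the interquartile range 0.90, around a median of -0.02, and 65 were called higher and 71 lower. The 77 mitochondrial ribosomal protein genes past the floor had an SD of 0.40 and an interquartile range of 0.49, similar to that of the members. All 77 canonical members stayed within 2-fold of equality, and 71 of them lay within 0.5 of the log2 ratio of the summed family. The interval lay below 0 in 66, above 0 in 9, and included 0 in 2. The count within 0.5 and the interval counts were not made for other genes. With counts this deep, an interval leaves out 0 even at small ratios. By sign alone, 67 canonical members lay below 0 and 10 above. The same counts were 4762 and 4110 over all 8872 genes past the floor, and 420 and 407 among the 827 genes. The large subunit had a median of -0.23 (SD 0.28 over 46 genes) and the small subunit -0.26 (SD 0.34 over 31 genes). Within the 6 bins of total UMIs, 60 canonical members were below 0 in all 6 bins and 5 were above 0 in all 6. This count over bins was not made for all genes.

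**Figure D3:**
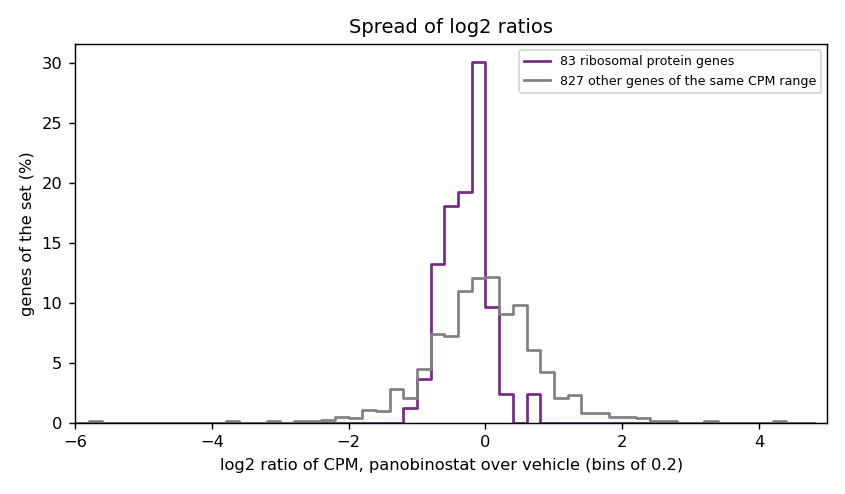
Log2 ratio of CPM, panobinostat over vehicle (x axis, bins of 0.2), for the 83 ribosomal protein genes past the floor and for 827 other genes of the same CPM range, as a percentage of each set (y axis). The ribosomal protein genes lie between -1.01 and 0.71 with an SD of 0.33, and the other genes have an SD of 0.82.

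Ratios were also taken between called phases of the vehicle library, which share 1 culture and 1 library and so hold no variation between cultures or libraries. Among the 77 canonical members, the log2 ratio of S over G1 vehicle cells had a median of -0.01 and an SD of 0.07, from -0.19 for Rpl39 to 0.19 for Rpl5. For G2/M over G1 vehicle cells the median was -0.05 and the SD 0.09, with the same genes at the ends, Rpl39 at -0.26 and Rpl5 at 0.15. Between G1 cells of the panobinostat library and G1 cells of the vehicle library the median was -0.26 and the SD 0.29, from -0.87 for Rpl12 to 0.65 for Rps28.

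**Figure D4:**
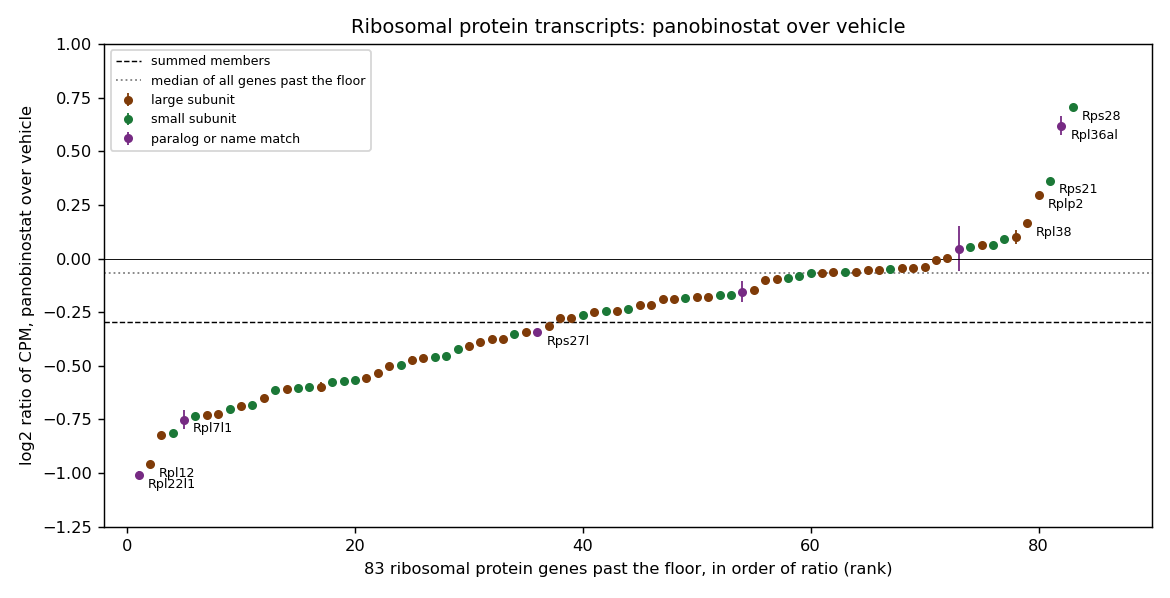
Log2 ratio of CPM, panobinostat over vehicle (y axis), of the 83 ribosomal protein genes past the floor in order of ratio (x axis, rank), coloured by class, with 95% counting intervals as bars. Of the 83, 71 lie below 0, beside 4762 of all 8872 genes past the floor. Rpl22l1 and Rpl12 stand at the low end at -1.01 and -0.96, and Rpl36al and Rps28 at the high end at 0.62 and 0.71.

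The canonical members farthest below equality were Rpl12, Rpl14, Rps3a1, Rps4x, Rpl9 and Rplp1. Rpl12, which sits at the base of the large-subunit stalk, had 1534 CPM with panobinostat and 2984 CPM with vehicle (log2 ratio -0.96). It lay between -1.01 and -0.89 in every UMI bin and at -0.87 in G1 cells. With TMM and DESeq2 scaling its ratios were -1.08 and -1.09, and it was then called lower. Rpl14, a large-subunit protein, had 1104 CPM with panobinostat and 1950 CPM with vehicle (-0.82). Rps3a1, a small-subunit protein, had 1849 CPM with panobinostat and 3246 CPM with vehicle (-0.81).

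Rps4x, the X-linked small-subunit gene, had 2023 CPM with panobinostat and 3366 CPM with vehicle (-0.73). Rpl9 of the large subunit had 1279 CPM with panobinostat and 2123 CPM with vehicle (-0.73). All of these genes were below equality in each UMI bin. In all, 15 of the 77 canonical members were at least 1.5-fold lower with panobinostat, and 1, Rps28, was at least 1.5-fold higher. The share of all genes at 1.5-fold was not counted. The lower quartile of the log2 ratio was -0.53 in canonical members and -0.54 over all genes past the floor. The upper quartile was -0.06 in canonical members and 0.42 over all genes.

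The highest ratio of a canonical member was that of Rps28, a small-subunit protein. It had 1275 CPM with panobinostat and 782 CPM with vehicle, a log2 ratio of 0.71 with a lower bound of 0.69. The ratio was 0.67 to 0.74 over the 6 UMI bins and 0.65 among G1 cells. Rps28 made up 0.956% of ribosomal protein UMIs with panobinostat and 0.477% with vehicle. The last 300 bases of its transcript have 3 near-identical copies elsewhere in the annotation, so reads may be split or shared with them.

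Next highest was Rps21, a small-subunit protein, with 1873 CPM with panobinostat and 1455 CPM with vehicle (0.36), and 0 near-identical copies. Rpl38, a large-subunit protein whose loss alters the body axis of mice, had 1762 CPM with panobinostat and 1572 CPM with vehicle (0.16). Rpl27 had 162 CPM with panobinostat and 151 CPM with vehicle (0.10). Of the 10 canonical members above 0 with CPM, only Rps28, Rps21, Rplp2 and Rpl38 stayed above 0 with both TMM and DESeq2 scaling. With DESeq2 their ratios were 0.58, 0.24, 0.17 and 0.04, and Rpl27 turned below 0 under both.

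The stalk of the large subunit, which binds the translation factors, had members on both sides of equality. Its base Rplp0 had 4717 CPM with panobinostat and 5580 CPM with vehicle (-0.24), close to the family as a whole. Of the paired acidic stalk proteins, Rplp1 had 2030 CPM with panobinostat and 3358 CPM with vehicle (-0.73), while Rplp2 had 1616 CPM with panobinostat and 1318 CPM with vehicle (0.29). The bins of total UMIs kept these apart, with Rplp1 between -0.89 and -0.72 and Rplp2 between 0.19 and 0.31. Rpsa, a small-subunit protein also known as a laminin receptor, had 3301 CPM with panobinostat and 5022 CPM with vehicle (-0.61).

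A few further members were picked after their values were seen. Rpl5 and Rpl11, which can bind Mdm2 and stabilise p53 when ribosome assembly fails, stood at 1045 CPM with panobinostat and 1593 CPM with vehicle (-0.61) and at 1466 CPM with panobinostat and 1917 CPM with vehicle (-0.39). Rps6, the phosphorylation target of the S6 kinases, had 948 CPM with panobinostat and 1540 CPM with vehicle (-0.70). Rpl5, Rpl11 and Rps6 all lay below the median member ratio of -0.24, and none reached the 2-fold rule. Ribosomal proteins that the name rule misses lay in the same range. Rack1, a scaffold on the small subunit, had 2120 CPM with panobinostat and 2748 CPM with vehicle (-0.37). Fau, whose small-subunit protein is made as a fusion with a ubiquitin-like protein, had 1676 CPM with panobinostat and 1746 CPM with vehicle (-0.06), and turned to 0.01 when ratios were centred on the median gene.

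Paralogs and their partners were compared by the share of the pair's UMIs that the paralog held. The shares count 3′ molecules and are not scaled for length. Rpl22l1, a paralog that Rpl22 is known to repress in mice, had 311.5 CPM with panobinostat and 627 CPM with vehicle, a log2 ratio of -1.01 (interval -1.03 to -0.99). Its partner Rpl22 had 951 CPM with panobinostat and 979 CPM with vehicle (-0.04), and Rpl22 turned to 0.03 when centred on the median gene. Rpl22l1 held 24.7% of the pair (interval 24.4 to 24.9%) with panobinostat and 39.04% (38.8 to 39.3%) with vehicle. The 3′ end of Rpl22l1 has 2 near-identical copies elsewhere in the annotation and that of Rpl22 has 0, so the Rpl22l1 counts are uncertain. The call of Rpl22l1 sits at the edge of the rule: it was lost in G1 cells (-0.95), with centring (-0.94) and without mitochondrial counts, while the ratio stayed between -1.33 and -0.95 over the UMI bins. The share in G1 cells differed by -12.2 points, against -14.4 points in all cells.

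Rpl36al, a paralog of Rpl36a, lay on the other side of equality. It had 107 CPM with panobinostat and 70.0 CPM with vehicle (0.62, lower bound 0.57), and 0.35 to 0.74 over the UMI bins. Rpl36a had 505 CPM with panobinostat and 669 CPM with vehicle (-0.41). Rpl36al held 17.6% of the pair (17.3 to 17.9%) with panobinostat and 9.48% (9.26 to 9.70%) with vehicle. Its 3′ end has 1 near-identical copy and shares sequence with 1 overlapping gene, and Rpl36a has 3 such copies, so these counts are uncertain.

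Rps27l, a paralog of Rps27 known as a p53 target, had 738 CPM with panobinostat and 937 CPM with vehicle (-0.34), and Rps27 had 837 CPM with panobinostat and 951 CPM with vehicle (-0.18). Rps27l held 46.9% of the pair with panobinostat and 49.6% with vehicle, a difference of -2.76 points that was -1.45 points in G1 cells. The third Rps27 gene, Rps27rt, had 15.8 CPM with panobinostat and 15.3 CPM with vehicle, and its interval included equality.

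Rpl7l1, which acts in large-subunit assembly, had 63.0 CPM with panobinostat and 106 CPM with vehicle (-0.75). In G1 cells its ratio was -0.45, and its partner Rpl7 had 2468 CPM with panobinostat and 2791 CPM with vehicle (-0.18). Rpl7l1 held 2.49% of the pair with panobinostat and 3.66% with vehicle, a difference of -1.17 points that was -0.508 points in G1 cells. Rps19bp1, matched by its name as a binding partner of Rps19, had 62.2 CPM with panobinostat and 69.2 CPM with vehicle (-0.15), and 0.03 in G1 cells.

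The paralogs known from muscle and testis were almost silent. Rpl3l, a striated muscle paralog of Rpl3, had 11 UMIs with panobinostat and 12 with vehicle. Rpl39l, a testis paralog of Rpl39, had 2 UMIs with panobinostat and 1 with vehicle. Both lie below the floor and no fold is given for them.

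**Figure D5:**
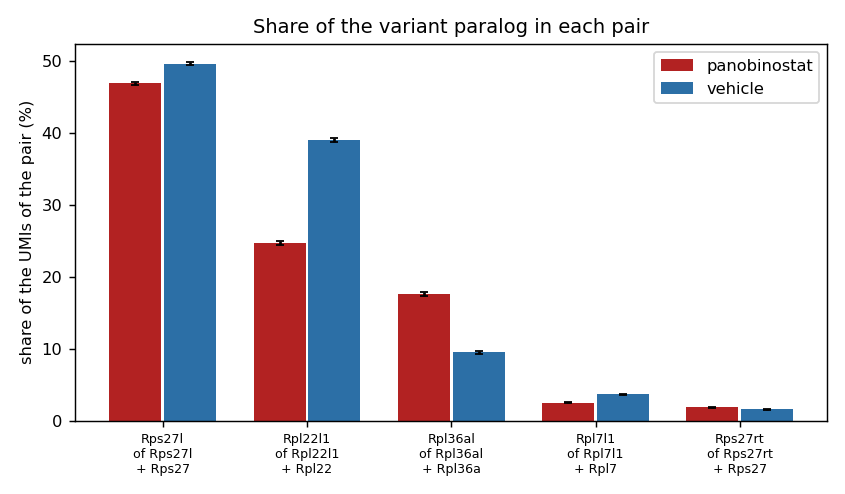
Share of the UMIs of each paralog pair that came from the variant paralog (y axis, %), in the panobinostat and the vehicle library, with exact binomial 95% counting intervals as bars. Rpl22l1 held 24.7% with panobinostat and 39.04% with vehicle, and Rpl36al held 17.6% with panobinostat and 9.48% with vehicle.

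The transcript starts of members at both ends of the range are shown because the TOP pyrimidine run and the promoter motifs of this family lie there. Each line gives 15 bases before and 15 bases from the start annotated by RefSeq on GRCm38.p6, 5′ to 3′ on the gene's strand. Capitals mark the longest run of at least 5 pyrimidines that begins with C, and in Rps28 the palindrome CTCGCGAG. In order, the windows are chr2:32961697-32961726 (+), chr9:120571502-120571531 (+), chr3:86142654-86142683 (-), chrX:102189377-102189406 (-), chr5:65391417-65391446 (-), chr17:33824548-33824577 (-), chr7:141447636-141447665 (+), chr11:114668565-114668594 (+), chr11:101442230-101442259 (+), chr3:28805493-28805522 (+) and chr12:69184053-69184082 (-).
Rpl12: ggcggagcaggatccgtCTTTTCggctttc
Rpl14: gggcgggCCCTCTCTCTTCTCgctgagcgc
Rps3a1: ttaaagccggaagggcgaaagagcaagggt
Rps4x: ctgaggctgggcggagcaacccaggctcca
Rpl9: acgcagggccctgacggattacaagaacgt
Rps28: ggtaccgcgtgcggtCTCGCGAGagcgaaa
Rplp2: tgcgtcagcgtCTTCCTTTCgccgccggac
Rpl38: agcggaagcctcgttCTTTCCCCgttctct
Rpl27: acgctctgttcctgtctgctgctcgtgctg
Rpl22l1: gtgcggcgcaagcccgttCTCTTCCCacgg
Rpl36al: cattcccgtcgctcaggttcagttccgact

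Pyrimidine runs stood at the start of genes at both ends of the range, such as Rpl12, Rpl14 and Rpl22l1 with low ratios and Rplp2 and Rpl38 with positive ones. Windows of 300 bases, 250 before to 50 after the start, were found for 65 of the 85 members. A run of at least 5 pyrimidines beginning with C within 20 bases of the start was present in 52 of them (80.0%), against 54.3% of other genes past the floor and 53.3% of all 27025 genes with a window. The median log2 ratio was -0.25 in the 50 holders past the floor and -0.28 in the 13 other members. Starts were taken from the annotation and not measured, so a member without a run may only have a misplaced start. CCGGAAG, the core bound by ETS factors, was found on either strand in 26 members (40.0%), against 22.9% of other genes past the floor and 9.93% of all genes. Its 25 holders past the floor had a median of -0.25 and the 38 others -0.28.

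The palindrome CTCGCGAG stood in 7 members (10.8%), against 2.35% of other genes past the floor and 1.04% of all genes. The 7 were Rpl10a, Rpl12, Rpl26, Rpl27a, Rps19, Rps28 and Rps6, so the canonical members with the lowest and the highest ratio both hold it. Their ratios ran from -0.96 to 0.71, with a median of -0.42, beside -0.24 in the 56 other members past the floor. AAGATGGC, the core bound by Yy1, was in 6 members (9.23%), against 5.85% of other genes past the floor and 3.19% of all genes. TATAAA was in 7 members (10.8%), against 8.0% of other genes past the floor and 15.7% of all genes. Motifs were chosen after the data were seen, both strands were searched except for the pyrimidine run, and a match describes the letters and no binding.

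The longest canonical members had the lowest median ratio, while those of short and middle length differed little. Across the 77 canonical genes, the Spearman correlation of log2 ratio with annotated coding length was -0.35 (Pearson -0.31). The 25 shortest genes, with 75 to 399 coding bases, had a median of -0.18, and the 26 of middle length, 405 to 564 bases, -0.16. The 26 longest, 576 to 1257 bases, had a median of -0.55. Mean CPM was nearly unrelated to the ratio (Spearman -0.10). The genes share the same 2 libraries, so these are descriptions. The correlation with length was not computed for other genes.

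Many ribosomal protein genes have processed copies that confuse counting. Of the 85 members, 49 had at least 1 near-identical copy of their last 300 bases in another annotated gene, defined as at least 90 aligned bases at 98% identity or more. Among canonical members, the 45 with copies had a median of -0.28 (SD 0.30) and the 32 without copies -0.24 (SD 0.31). Rpl12, Rpl14, Rps21, Rplp2, Rpl22 and Rps27l had no such copy. Rpl22l1, Rps27, Rps27rt and Rpl7 had 2 each, and Rpl7l1 had 1.

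Mitochondrial ribosomal proteins, which serve the separate ribosome of that organelle, had a median log2 ratio of -0.07, beside -0.07 over all genes. In G1 cells the medians were 0.04 for this list and -0.01 for all genes. Of 77 genes past the floor, 2 were called higher and 0 lower, beside 9.85% of all genes higher and 11.0% lower. Mrpl33 had 507 CPM with panobinostat and 223 CPM with vehicle (1.18). Mrpl24 had 173.6 CPM with panobinostat and 83.2 CPM with vehicle (1.06), a call that was lost with TMM (0.95), with DESeq2 (0.94) and in G1 cells (0.97). Mrpl12 had 106 CPM with panobinostat and 206 CPM with vehicle (-0.95), and -0.50 in G1 cells.

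Translation factors and other TOP transcripts were mixed. Of 27, 1 was called higher and 4 lower, with a median of -0.01, beside 9.85% of all genes called higher and 11.0% lower. Npm1, a nucleolar chaperone, had 654 CPM with panobinostat and 1872 CPM with vehicle (-1.52). The helicase Eif4a1 had 392.3 CPM with panobinostat and 1015 CPM with vehicle (-1.37). The call higher was the intermediate filament gene Vim, 541 CPM with panobinostat and 122 CPM with vehicle (2.14), which is no translation factor. The abundant TOP transcripts Eef1a1 and Tpt1, picked after their values were seen, lay on opposite sides. Eef1a1 had 5587 CPM with panobinostat and 7922 CPM with vehicle (-0.50), and Tpt1 had 11097 CPM with panobinostat and 5796 CPM with vehicle (0.94).

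Ribosome biogenesis genes, which make and process ribosomal RNA, had a median log2 ratio of -1.01. Of 37, 1 was called higher and 19 lower, beside 9.85% of all genes called higher and 11.0% lower. Dkc1, the pseudouridine synthase of ribosomal RNA, had 15.6 CPM with panobinostat and 76.1 CPM with vehicle (-2.28), and -1.27 in G1 cells. Gnl3, the nucleolar GTPase nucleostemin, had 27.0 CPM with panobinostat and 103.7 CPM with vehicle (-1.94). Nop56, a box C/D snoRNP protein, had 48.2 CPM with panobinostat and 182 CPM with vehicle (-1.92). This count moved with the choice of cells: among G1 cells 7 were called lower and 1 higher, with a median of -0.57, where 8.96% of all genes were called higher and 7.22% lower. The median of the ribosomal proteins in the same G1 cells was -0.26.

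Of 19 genes of the mTOR pathway and TOP mRNA control past the floor, 3 were called higher and 0 lower, with a median of 0.19, beside 9.85% of all genes called higher and 11.0% lower. The 3 were Sesn3, Deptor and Tsc1. Sesn3 had 114 CPM with panobinostat and 41.1 CPM with vehicle, Deptor 27.9 CPM with panobinostat and 10.3 CPM with vehicle, and Tsc1 21.6 CPM with panobinostat and 10.1 CPM with vehicle. With TMM or DESeq2 scaling 2 were called higher, beside 760 of all 8872 genes with TMM and 753 with DESeq2. In G1 cells 1 was called higher, beside 8.96% of all genes. Sesn3, Deptor and Tsc1 are known to restrain mTOR complex 1, as are other genes of the list that were not called: Tsc2 had a log2 ratio of 0.85, Ddit4 0.43 and Akt1s1 -0.48. The translation repressor Eif4ebp1 had -0.02. Larp1 had 54.4 CPM with panobinostat and 91.9 CPM with vehicle (-0.76). Among 7 regulators of ribosomal protein genes past the floor, Ctcf was called lower, at 39.0 CPM with panobinostat and 91.6 CPM with vehicle (-1.23), and was not called in G1 cells. The ETS factor Gabpa, Yy1 and Myc lay between -0.51 and -0.10.

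Of markers of other kidney and blood cell types, Acta2 and Tagln with vehicle and Tagln and Cd68 with panobinostat had the highest levels. Of 6 mesangial or fibroblast markers the sum was 75.2 CPM with panobinostat and 1431 CPM with vehicle, nearly all of it Tagln and Acta2. Tagln had 59.5 CPM with panobinostat and 792 CPM with vehicle, and Acta2 12 CPM with panobinostat and 639 CPM with vehicle. The defining marker Pdgfrb stood at 0.365 CPM with panobinostat and 0.0992 CPM with vehicle. The 3 leukocyte markers measured summed to 67.7 CPM with panobinostat and 4.73 CPM with vehicle. Cd68 had 65.5 CPM with panobinostat and 4.11 CPM with vehicle, while Ptprc stood at 1.98 CPM with panobinostat and 0.606 CPM with vehicle. The 6 podocyte markers summed to 24.4 CPM with panobinostat and 12.8 CPM with vehicle. Wt1 had 0 UMIs with vehicle. The 5 endothelial markers summed to 3.14 CPM with panobinostat and 9.11 CPM with vehicle. Most of the vehicle sum was Emcn, at 0.0864 CPM with panobinostat and 6.68 CPM with vehicle. Kdr alone went the other way, at 2.57 CPM with panobinostat and 0.793 CPM with vehicle. Tie1 had 0 UMIs with panobinostat and 7 with vehicle. The 5 tubule markers measured summed to 13.0 CPM with panobinostat and 0.771 CPM with vehicle, and the 2 erythroid markers measured to 0.835 CPM with panobinostat and 0.0441 CPM with vehicle. Their part in the ribosomal protein values was not tested.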

How the data were processed

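Sequencing of the 10x Genomics 3′ libraries was on a NextSeq500, per the labels' protocols. Cell Ranger 3.0.1 and build mm10 are named, per the submitters' processing notes. No source used here gives the annotation. The authors deposited 1 matrix of raw UMI counts for 19394 genes and 5135 cells, and the mark that ends each barcode gave its library (CTRL was read as vehicle). No cell was removed here and doublets were not called, so they may remain.

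Counts were summed per library and scaled to 1000000 (CPM), with Clopper-Pearson 95% intervals that cover counting error only. The 0 further columns of per-sample values were left out. Phases were scored with scanpy 1.11.5 after thinning to 18663 UMIs, which left out 60 panobinostat and 453 vehicle cells. Near-identical copies were sought with blastn 2.17.0 in GENCODE M21 transcripts, and promoter sequences are from RefSeq (GRCm38.p6). Alternatives used edgeR 4.0.16 (TMM), DESeq2 1.42.0 (size factors), other floors, other cells, other denominators and a mean over cells. On simulated counts with counting noise only, which check the code and say nothing of variation between libraries, the call rule found 50 of 50 genes set at 3-fold and 0 of 50 set at 1.5-fold, with 0 of 8121 unchanged genes called.

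The members and lists were chosen with earlier results of these data known. Named were all paralogs with partners, the 6 highest and 6 lowest canonical members, the stalk proteins, Rpsa, Rack1, Fau, members past 2-fold, and the 3 genes of the biogenesis, translation factor and mitochondrial lists with the largest absolute log2 ratio. Some genes under this rule are not reported here, and other genes were named after their values were seen. R 4.3.3 and Python 3.11.15 (scipy 1.17.1, numpy 2.4.6) were used.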

Additional observations from a re-analysis of the deposited data

How the results depend on the processing

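No paired analysis was possible because each treatment has 1 library. Depth is not the limit for members past the floor, whose counting intervals are narrow, but the spread between cultures cannot be estimated. The log2 ratio of the summed share (-0.30) was -0.41 with TMM, -0.42 with DESeq2, -0.23 centred on the median gene, -0.31 in G1 cells, -0.34 in cells of the middle UMI range, -0.32 without the cells poorest in Malat1, -0.32 as a mean over cells, -0.29 for canonical members, -0.27 without mitochondrial counts and -0.24 without Malat1 and Neat1. In the same order, leaving out canonical members, the median member ratio (-0.24) was -0.36, -0.37, -0.18, -0.26, -0.29, -0.27, -0.28, -0.22 and -0.19. The SD of the members' ratios (0.33) was 0.34 with no floor, 0.31 in G1 cells, 0.30 for canonical members and 0.30 for members without near-identical copies. The count of members called higher was 0 under every alternative run. The count called lower (1) was 2 with TMM and 2 with DESeq2 (Rpl12 and Rpl22l1), and 0 with centring, in G1 cells, for canonical members and without mitochondrial counts. The difference in median share per cell (-3.37 points) was -3.25 in G1 cells, -3.25 in the middle UMI range, -3.32 for canonical members, -3.31 without mitochondrial counts and -2.89 without Malat1 and Neat1. In G1 cells and then in the middle UMI range, the paralog share differed by -0.508 and -0.895 points for Rpl7l1 (-1.17 in all cells), 8.84 and 9.43 for Rpl36al (8.08), and -1.45 and -3.34 for Rps27l (-2.76), and in G1 cells by -12.2 for Rpl22l1 (-14.4). No value of these summaries changed direction, and the cause of the differences was not tested. The settings without Malat1 and Neat1 and without near-identical copies were added after the data were seen.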

Other observations

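The name rule leaves out the Rps6k kinases, which act on ribosomal proteins and other substrates and are not part of the ribosome. Of the 10 rows, Rps6ka2 had 15.3 CPM with panobinostat and 5.64 CPM with vehicle (log2 ratio 1.44), and Rps6ka4 had 22.6 CPM with panobinostat and 46.3 CPM with vehicle (-1.04, interval -1.11 to -0.96). Rps6kb1 and Rps6kb2 stayed within the 2-fold rule. Rps6kb1 had 45.1 CPM with panobinostat and 57.7 CPM with vehicle (-0.36). Rps6kb2 had 12 CPM with panobinostat and 8.58 CPM with vehicle (0.49). Rps6kl1, below the floor, had 292 UMIs with panobinostat and 31 with vehicle.

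Of the 8 rows marked as pseudogenes, 3 reached the floor. Rps12-ps3 had 12.3 CPM with panobinostat and 20.4 CPM with vehicle (-0.73). Rpl10-ps3 had 9.75 CPM with panobinostat and 12.8 CPM with vehicle (-0.39). Rpl27-ps3 had 11.5 CPM with panobinostat and 12.2 CPM with vehicle, and its interval included equality.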
